A study of Mus musculus with 40 samples.

Results

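The genes described here are the 10 genes of the smooth muscle contractile apparatus Acta2, Tagln, Cnn1, Myh11, Myl9, Tpm1, Tpm2, Des, Actg2 and Lmod1, taken by their gene symbols. All 10 were found among the 24062 genes of the count table, and all 10 passed the filter on low counts. They were measured by RNA-Seq in primary mouse embryonic fibroblasts (MEFs), cells grown from embryos of 13.5 days post coitum and used at passage 3, on a mixed C57BL/6J and 129P2OlaHsd background. The embryos were wild type (WT), heterozygous (Het) or knockout (KO) for Sall2. This gene encodes a transcription factor with zinc fingers, and its targeted allele carries a neomycin cassette and 129P2-derived flanking sequence on chromosome 14. Cells of each genotype were left untreated (control) or received 1 μM doxorubicin, a DNA-damaging topoisomerase II poison, during 16 h. The 6 groups held 1 WT, 1 Het and 3 KO libraries in control and 1 WT, 1 Het and 2 distinct KO libraries with doxorubicin, 9 libraries in all. WT and Het are thus 1 embryo each, and only KO gives a spread between embryos.

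Smooth muscle cells contract when myosin filaments pull on actin filaments. Acta2 and Actg2 encode the smooth muscle actins, Myh11 the smooth muscle myosin heavy chain and Myl9 a regulatory light chain whose phosphorylation starts contraction. Tpm1 and Tpm2 encode tropomyosins, which run along the actin filament, Cnn1 (calponin) and Tagln (transgelin, SM22) bind it, Lmod1 (leiomodin) starts new actin filaments, and Des encodes the intermediate filament protein desmin. Many of these genes are known to be switched on by serum response factor (SRF) and its partners of the myocardin family through a DNA element called the CArG box. Fibroblasts in culture commonly express part of this set, above all Acta2 and Tagln, as activated myofibroblasts do. None of the 10 genes lies on chromosome 14.

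The total count per library lay between 15560728 and 24122414, and the 10 genes together took from 1.51% to 2.29% of it in control and from 1.69% to 3.37% with doxorubicin. The counts deposited for KO embryos 2 and 3 with doxorubicin were identical for 24062 of 24062 genes and were counted as 1 library. This library held 4163 counts of Xist and 0 of Y-linked genes, where the control library of KO embryo 2 held 5997 and 1 and that of KO embryo 3 held 31 and 6397, and it is called KO embryo 2 here. Sall2 itself was at 37.0 CPM (counts per 1000000 counts of the library, scaled by TMM) in WT control, 24.3 in Het control and 19.5, 23.8 and 19.1 in the KO controls. The doxorubicin libraries held 9.34 (WT), 8.33 (Het), 4.23 and 3.71 CPM (KO), so reads remained on the targeted gene in every KO library. Both Het libraries and the control library of KO embryo 3 stood apart. The summed level of 8 interferon response genes was 1817 and 1313 CPM in Het and 2002 CPM in KO embryo 3, against 42.7 to 58.2 CPM in the other 3 control libraries and 243 to 294 CPM in the other 3 doxorubicin libraries. Fibroblast markers were present throughout, with a summed level of 9 markers of 42051 to 49952 CPM in the control libraries of WT and KO embryos 1 and 2 and of 10303 to 11496 CPM in those of Het and KO embryo 3. Not every marker followed the sum. Dcn was at 42.3 CPM in Het and 68.1 CPM in KO embryo 3, against 39.3 to 140 CPM in the other 3 control libraries. S100a4 was at 232 CPM in KO embryo 3 against 180 to 236 CPM, but at 103 CPM in Het. Every other marker of the list was lower in both. A list of 14 skeletal and cardiac muscle markers summed to between 62.5 and 224 CPM, and 10 of the 14 passed the filter. Only Myf5, which defines muscle precursors, was at or under 3 counts in every library. In Het and KO embryo 3 control, Myh3 was at 29.4 and 11.5 CPM, Actc1 at 35.5 and 13.3 and Ttn at 8.64 and 3.42. In WT and KO embryos 1 and 2 they were at 1.11 to 3.62, 2.30 to 3.87 and 0.551 to 0.854 CPM. Myh6 was raised in Het (9.10 CPM) but not in KO embryo 3 (0.855 CPM). Acta1 was lower in both, at 54.0 and 39.9 against 76.2 to 104 CPM.

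To show the DNA that precedes these genes, RefSeq promoter windows (GRCm38.p6, 250 bases before to 50 bases after the start) were searched for the CArG box, written CC, then 6 bases that are each A or T, then GG. The pattern is its own reverse complement, so both strands were read at once. A window was given for 7 of the 10 genes, and Tagln, Myh11 and Actg2, which had none, were not searched. Of the 7, only that of Myl9 held a box (CCTAATAAGG, at base -161 from the start), against 1.63% of all 32851 windows. A looser form with exactly 5 of the 6 inner bases A or T, chosen after the sequences were seen, was found in the 250 bases before the start of Acta2 (at -84 and -34) and of Myl9 (at -99), against 7.24% of all windows. These are matches of letters and not shown to be sites. The 250 bases before the start of both genes are printed 5′ to 3′ on the strand of the gene with the boxes of both forms in capitals, together with those of Lmod1, the gene with the largest doxorubicin difference, which held neither form. The Acta2 stretch is chr19:34255374-34255623, minus strand, that of Myl9 is chr2:156775214-156775463, plus strand, and that of Lmod1 is chr1:135324563-135324812, plus strand.
Acta2: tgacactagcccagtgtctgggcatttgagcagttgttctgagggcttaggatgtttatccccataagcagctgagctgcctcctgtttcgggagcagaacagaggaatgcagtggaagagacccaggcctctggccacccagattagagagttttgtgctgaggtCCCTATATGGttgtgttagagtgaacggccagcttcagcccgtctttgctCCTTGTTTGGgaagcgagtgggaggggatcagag
Myl9: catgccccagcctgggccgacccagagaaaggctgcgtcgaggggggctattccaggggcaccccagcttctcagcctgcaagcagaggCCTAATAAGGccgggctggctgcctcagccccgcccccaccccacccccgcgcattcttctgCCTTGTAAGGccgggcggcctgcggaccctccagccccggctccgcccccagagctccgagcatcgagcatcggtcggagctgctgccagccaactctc
Lmod1: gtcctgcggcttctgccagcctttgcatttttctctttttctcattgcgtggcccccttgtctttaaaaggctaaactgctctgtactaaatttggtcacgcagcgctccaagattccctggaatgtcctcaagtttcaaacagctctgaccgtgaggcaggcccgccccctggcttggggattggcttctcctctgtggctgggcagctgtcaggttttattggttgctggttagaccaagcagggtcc

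In control MEFs the set was led by Acta2 and Tagln, and Lmod1, Des and Myh11 were far lower. Levels of different genes were compared per length, as CPM per kb of merged exons (GENCODE M21, GRCm38). In WT control this level was 4041 for Acta2, 2184 for Tagln, 891 for Myl9, 657 for Actg2, 603 for Tpm1, 342 for Tpm2, 157 for Cnn1, 29.6 for Lmod1, 26.3 for Des and 9.47 for Myh11. Myh11, the myosin that defines mature smooth muscle, was the lowest of the 10 in each of the 5 control libraries, at 5.79 to 18.4 CPM per kb. Acta2 and Tagln changed places at the top, since Tagln was above Acta2 in the control libraries of Het (1902 against 1844) and of KO embryo 3 (1958 against 1610). The places of Myl9, Actg2 and Tpm1 also varied between libraries, while Tpm2 was the sixth and Cnn1 the seventh in all 9. In rank by counts among all genes of a library, Acta2 was between the second and the eighth place in all 9 libraries, and its counts ran from 78547 to 277207. The smallest count of any of the 10 genes was 213, for Lmod1 in a doxorubicin library, so counting error was small beside the differences between embryos.

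**Figure D1:**
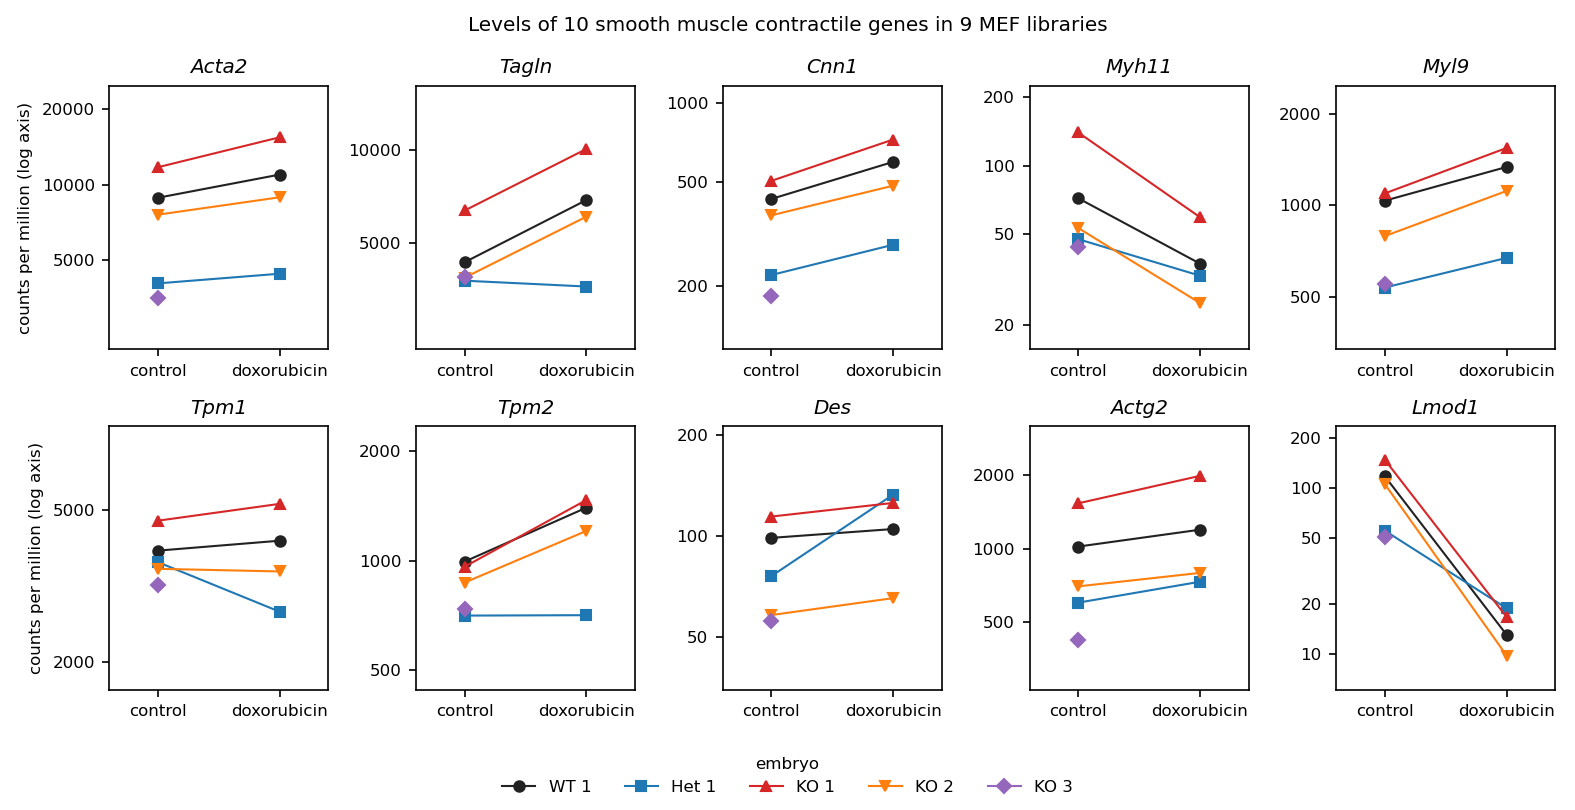
Level of each of the 10 genes in CPM (log axis, a different range in each panel) in control and doxorubicin libraries. Each point is 1 library and each line joins the libraries of 1 embryo, and the lines of Lmod1 and Myh11 slope downward in all 4 embryos.

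The first question was how the contractile genes differed between doxorubicin-treated and control MEFs. Lmod1 was the gene with the largest difference, at 6.39-fold lower with doxorubicin, and its control and doxorubicin libraries did not overlap. Myh11 was lower in all 4 embryos as well, by 1.45 to 2.35-fold, whereas Acta2, Cnn1, Myl9, Actg2, Tpm2 and Des were higher in all 4 embryos, by 1.003 to 1.75-fold. In the fit over all genotypes (edgeR quasi-likelihood test with genotype as covariate, false discovery rate (FDR) under 0.01), 1 of the 10 genes passed, Lmod1, while 42.1% of the 14883 genes tested did. The share of the contractile genes that passed was thus below the background of these libraries. This first fit did not use the pairing of the libraries by embryo. With the embryo as a replicate block, 4 of the 10 passed, 2 higher (Cnn1 and Myl9) and 2 lower (Lmod1 and Myh11), against 59.4% of all genes. Which genes pass thus depends on whether the pairing is used. Without both Het libraries and the control library of KO embryo 3, an alternative added once the values had been seen, 2 of the 10 passed, Lmod1 and Tpm2. The median log2 fold change of the 10 was 0.47 against -0.02 for all genes tested, and 8 of the 10 were above 0. It was 0.28 with the embryo block and 0.29 without the control library of KO embryo 3, with 7 above 0 in both, and 0.19 without the doxorubicin library of KO embryo 1. In these bulk samples, fewer cells that express a gene and less RNA of it per cell cannot be told apart.

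Lmod1 (chr1:135324807-135368065, plus strand) encodes leiomodin 1, which nucleates actin filaments in smooth muscle. The control libraries of WT, Het and KO embryos 1, 2 and 3 held 117, 55.0, 147, 105 and 50.6 CPM of it, in this order. The doxorubicin libraries of WT, Het and KO embryos 1 and 2 held 13.01, 18.8, 16.7 and 9.76 CPM. The same order of libraries is kept for the other genes. Every doxorubicin library thus lay below every control library, which held for 1 of the 10 genes and for 47.4% of all genes tested in either direction. Within an embryo the level was 8.98-fold lower for WT, 2.93-fold for Het, 8.81-fold for KO embryo 1 and 10.7-fold for KO embryo 2. The fitted log2 fold change was -2.68 (SE 0.408, edgeR FDR 0.000713), the 159th lowest of the 14883 genes, and Lmod1 passed in 20 of 20 settings of this fit. The difference was smallest in Het, whose control level (55.0 CPM) was close to that of KO embryo 3 (50.6 CPM), the other control library with high interferon response genes.

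Myh11 (chr16:14194535-14291372, minus strand), the smooth muscle myosin heavy chain, was the other gene that was lower with doxorubicin. It was at 71.9, 47.6, 140, 53.3 and 44.0 CPM in the 5 control libraries and at 37.2, 32.9, 59.4 and 24.9 CPM in the 4 doxorubicin libraries. The groups overlapped, and KO embryo 1 was the highest embryo in both treatments. The fitted log2 fold change was -0.83 (SE 0.394, edgeR FDR 0.104) and did not pass, whereas with the embryo as a block it was -0.96 (SE 0.134, edgeR FDR 0.000416) and passed.

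The smooth muscle actins Acta2 (chr19:34241090-34255590, minus strand) and Actg2 (chr6:83512905-83536265, minus strand) were higher with doxorubicin in 4 of 4 embryos, by less than the spread between embryos. Acta2 was at 8874, 4049, 11739, 7601 and 3535 CPM in control and at 10973, 4424, 15443 and 8912 CPM with doxorubicin. The ratio within an embryo was 1.09 to 1.32, while the control embryos differed among themselves by 3.32-fold. Actg2, the enteric smooth muscle actin, was at 1023, 603, 1538, 703 and 425 CPM in control and at 1200, 734, 1993 and 798 CPM with doxorubicin. Its ratio within an embryo was 1.14 to 1.30, and its control embryos differed by 3.62-fold. The fitted log2 fold changes were 0.47 for Acta2 (SE 0.434, edgeR FDR 0.386) and 0.47 for Actg2 (SE 0.419, edgeR FDR 0.365), and neither passed with the block (edgeR FDR 0.0437 and 0.0258). Without the doxorubicin library of KO embryo 1 they were 0.22 for Acta2 and 0.08 for Actg2. With RUVg, a method that takes out 1 factor of unwanted variation, Acta2 passed at 0.93 (edgeR FDR 0.00960), while Actg2 did not at 0.92 (edgeR FDR 0.0292).

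The other 4 actin genes, Acta1, Actc1, Actb and Actg1, were at a lower level with doxorubicin in 4 of 4 embryos, and the make-up of the actin transcripts differed between treatments. Among the 6 actin genes, Acta2 took 57.8% to 60.2% of the CPM per kb in the 5 control libraries and 69.7% to 74.7% in the 4 doxorubicin libraries. The ranges did not overlap although Acta2 itself had levels that did, and each embryo showed the same direction. Actg2 took 7.54% to 12.5% in control and 9.44% to 16.3% with doxorubicin, and these ranges overlapped. Actb, the cytoplasmic beta-actin, had a fitted log2 fold change of -0.81 (SE 0.408, edgeR FDR 0.121) and Actg1, the gamma-actin, one of -1.08 (SE 0.332, edgeR FDR 0.0222), neither of which passed. This share was chosen as a measure after the values were seen, and it was not tested. The share within a library shows unequal change between the genes and not which of them changed.

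**Figure D2:**
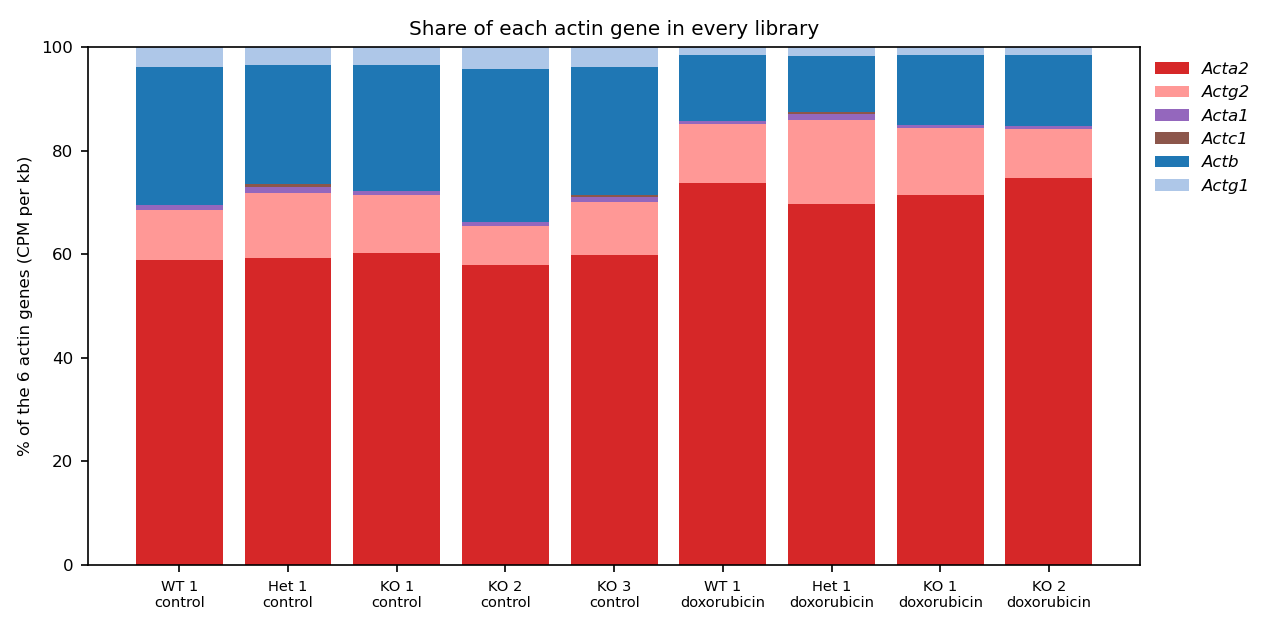
Share of each of the 6 actin genes in their summed level (CPM per kb of exons, in percent) in the 9 libraries. The red part, Acta2, fills 57.8% to 60.2% in control and 69.7% to 74.7% with doxorubicin.

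Myl9 (chr2:156775420-156781658, plus strand), the regulatory light chain, and Cnn1 (chr9:22099216-22109630, plus strand), calponin, were higher in each of the 4 embryos by similar ratios. Myl9 was at 1036, 536, 1095, 792 and 552 CPM in control libraries and at 1338, 671, 1545 and 1115 CPM in doxorubicin libraries. The ratio was between 1.25 and 1.41 in the 4 embryos. Cnn1 was at 430, 221, 504, 373 and 184 CPM in control and at 595, 288, 724 and 483 CPM with doxorubicin, with ratios between 1.30 and 1.44. Levels of the treatments overlapped for both genes, since Het with doxorubicin lay below WT in control. Neither passed over all genotypes, where the log2 fold change was 0.55 for Myl9 (SE 0.258, edgeR FDR 0.102) and 0.62 for Cnn1 (SE 0.299, edgeR FDR 0.111). With the block both passed, at 0.42 for Myl9 (SE 0.0886, edgeR FDR 0.00332) and 0.44 for Cnn1 (SE 0.0859, edgeR FDR 0.00235), and with RUVg both passed too (edgeR FDR 0.00273 and 0.000771).

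Tagln (chr9:45929619-45936058, minus strand) and the tropomyosins had ratios in Het that stood apart from those of the other embryos, a difference that was not tested. Tagln was at 4342, 3780, 6387, 3868 and 3892 CPM in control and at 6905, 3620, 10112 and 6101 CPM with doxorubicin. The ratio was 1.59, 1.58 and 1.58 in WT and KO embryos 1 and 2 but 0.957 in Het. Tpm2 (chr4:43514711-43523765, minus strand) was at 994, 705, 962, 870 and 736 CPM in control and at 1400, 706, 1469 and 1207 CPM with doxorubicin. Its ratio was 1.39 to 1.53 in WT and KO and 1.003 in Het. Tpm1 (chr9:67022590-67049406, minus strand) was at 3910, 3647, 4686, 3503 and 3177 CPM in control and at 4152, 2704, 5188 and 3448 CPM with doxorubicin. Its ratio was 1.06 for WT, 1.11 and 0.984 for KO embryos 1 and 2 and 0.741 for Het. The fitted log2 fold changes were 0.57 for Tagln (SE 0.346, edgeR FDR 0.195), 0.47 for Tpm2 (SE 0.213, edgeR FDR 0.0934) and 0.03 for Tpm1 (SE 0.295, edgeR FDR 0.947), and the sign of the last depended on the setting. Without the Het libraries and KO embryo 3, Tpm2 passed at 0.52 (SE 0.117, edgeR FDR 0.00226). Tagln overlaps Pcsk7 on the other strand, and Des and Lmod1 each overlap a predicted gene there. The strand setting of the counting is not given, and the part of these overlaps in the counts was not tested.

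Des (chr1:75360329-75368579, plus strand), desmin, was low and had its largest ratio in Het. Its control libraries were at 98.8, 76.1, 114, 58.2 and 55.9 CPM and its doxorubicin libraries at 105, 133, 126 and 65.4 CPM. The ratio was 1.06 to 1.12 in WT and KO and 1.75 in Het. The fitted log2 fold change over all genotypes was 0.38 (SE 0.287, edgeR FDR 0.290). Across the 10 genes, the direction was the same in all 4 embryos for 8, all but Tagln and Tpm1, and for 75.5% of all genes tested.

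**Figure D3:**
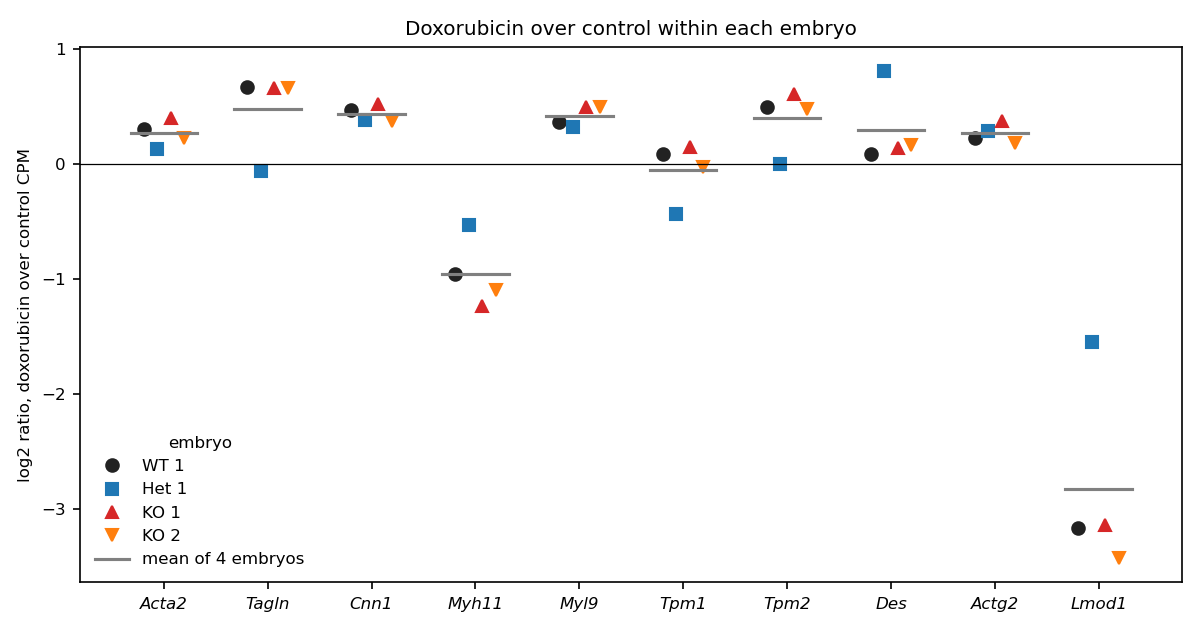
Log2 ratio of the doxorubicin to the control level within each of the 4 embryos that have both, for the 10 genes, with a bar at the mean. Lmod1 lies between -3.42 and -1.55 and Myh11 between -1.24 and -0.53. Het lies apart from the other 3 embryos for Lmod1, Myh11, Tagln, Tpm1, Tpm2 and Des.

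KO is the one genotype with more than 1 library in both treatments. In the fit on KO alone (3 control and 2 doxorubicin libraries), 0 of the 10 genes passed by the edgeR quasi-likelihood test, against 12.8% of 14904 genes, 1 had an unadjusted p under 0.05, and 1 passed by DESeq2. That gene was Lmod1 in both cases, with a log2 fold change of -2.93 (SE 0.547, edgeR FDR 0.0123). Without the control library of KO embryo 3, it passed at -3.28 (edgeR FDR 1.36e-05). With the embryo as a block, 6 of the 10 passed, against 67.5% of all genes. KO embryo 3 has no doxorubicin library, so the difference in the block fit rests on the pairs of KO embryos 1 and 2 only. These pairs leave almost no residual degrees of freedom, so the calls of the block fit are weak. Tagln (0.66), Tpm2 (0.54), Myl9 (0.50) and Cnn1 (0.45) were higher, and Lmod1 (-3.27) and Myh11 (-1.17) were lower on the log2 scale. The KO libraries are also part of the fit over all genotypes, so the fits are not independent.

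The next question was whether the contractile genes depended on Sall2. For most of them the KO embryos lay on both sides of WT. In control, 0 of the 10 genes passed between WT and KO by the edgeR quasi-likelihood test, 0 had an unadjusted p under 0.05 and 0 passed by DESeq2, against 0.0% of 14470 genes tested. The log2 fold change of KO against WT ran from -0.35 (Des) to 0.16 (Myh11), with standard errors of 0.528 to 1.25. The WT level lay within the range of the 3 KO embryos for 9 of the 10 genes, and for Tpm2 WT was above all 3, at 994 CPM against 736 to 962. By library totals without TMM, WT lay within the KO range for Tpm2 as well. With doxorubicin, 0 of the 10 passed by edgeR, 0 at an unadjusted p under 0.05 and 0 by DESeq2, against 0.197% of 15256 genes, and the WT level lay between both KO embryos for all 10. The log2 fold changes ran from -0.15 (Des) to 0.22 (Tagln), with standard errors of 0.200 to 0.401. The share of all genes tested with WT inside the KO range was not counted in either treatment. Most of the 10 genes share 1 order, with KO embryo 1 above WT and KO embryo 2 below it. They are thus not 10 independent observations. The doxorubicin difference was also compared between WT and KO in 1 model. For this interaction 0 of the 10 passed by edgeR, 0 at an unadjusted p under 0.05 and 0 by DESeq2, against 0.0% of 15905 genes, with standard errors of 0.673 to 1.49. The slope on the number of Sall2 alleles in control, with WT set to 1, Het to 0.5 and KO to 0, passed for 0 of the 10 by edgeR, 0 at an unadjusted p under 0.05 and 0 by DESeq2, against 0.0% of 14947 genes. The median slope of the 10 genes was 0.03 on the log2 scale, and it turned to -1.21 without the WT library, which leaves Het against KO, and to -0.22 without KO embryo 3, while it was 0.51 without KO embryo 1. In each of these comparisons, the slope included, the standard error was larger than the fitted value for each of the 10 genes. The doxorubicin fit of KO against WT held 3 libraries and left 1 residual degree of freedom. The missing calls thus do not show that the genotypes were alike in either treatment.

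**Figure D4:**
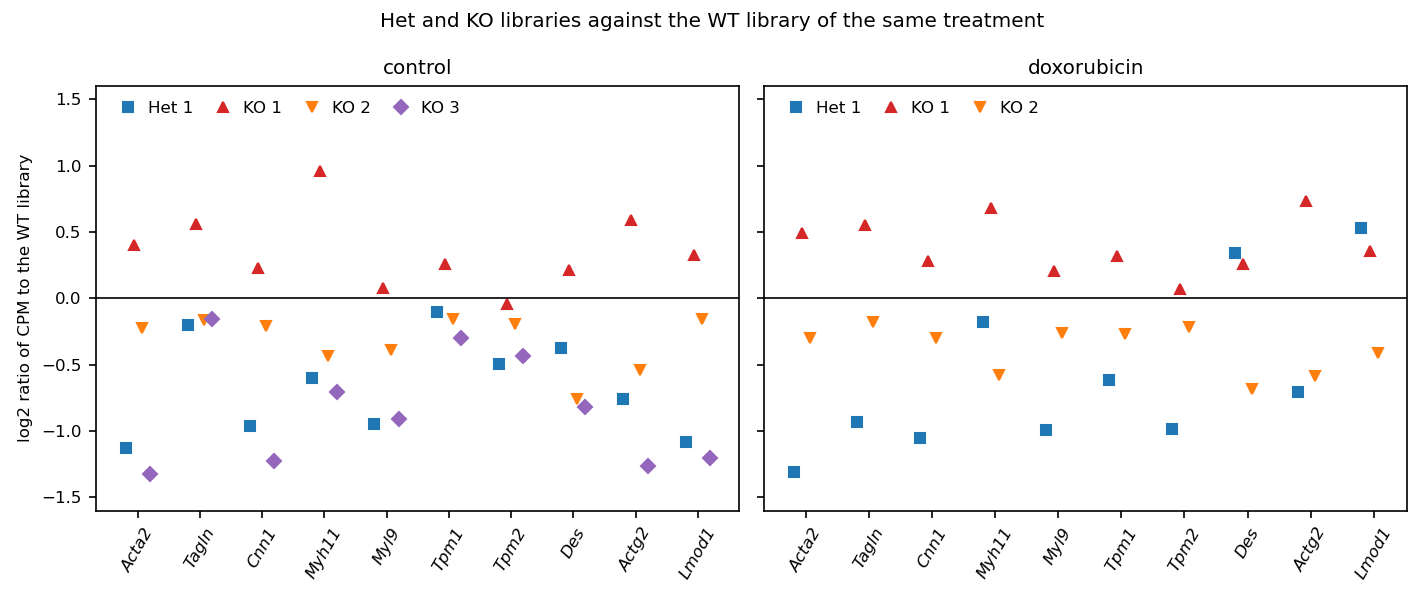
Log2 ratio of the level in each Het and KO library to the WT library of the same treatment, for the 10 genes. KO embryos 1 and 2 lie on either side of 0 for 9 genes in control and for 10 with doxorubicin, and Het and KO embryo 3 lie below 0 for all 10 genes in control, which without TMM held for 6 genes in Het and 7 in KO embryo 3.

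The variation among the embryos had the same form in most of the 10 genes. The median ratio of the 10 control levels to those of WT was 1.23, 0.861 and 0.549 for KO embryos 1, 2 and 3 and 0.625 for Het. Under doxorubicin this median was 1.26 and 0.812 for KO embryos 1 and 2 and 0.568 for Het. By these medians KO embryo 1 was the highest, and the KO embryos spanned both sides of WT. The low place of Het and KO embryo 3 depended on the scaling, since the TMM factors were 1.24 and 1.22 in their control libraries against 0.839 to 0.848 in the others. By library totals without TMM, an alternative added once the values had been seen, the control medians were 1.21, 0.854 and 0.789 for KO embryos 1, 2 and 3 and 0.913 for Het. Tagln, Tpm1 and Tpm2 were then above WT in both Het and KO embryo 3, and Des in Het. The 4 embryos with both treatments had the same order in control and with doxorubicin for Acta2, Tagln, Cnn1, Myl9 and Actg2, 5 of the 10 genes, against 16.4% of all genes tested. KO embryo 1 was the highest of the 4 in both treatments for 7 of the 10, against 12.3% of all genes. Without TMM these counts were 4 (all but Tagln of the 5) against 16.9% and 6 against 6.65%. These measures were chosen after the values were seen. KO embryo 1 also stood apart from the other paired embryos in the counts that mark sex. It held 3 and 6 counts of Xist and 3806 and 1551 of Y-linked genes in control and doxorubicin. WT, Het and KO embryo 2 held 4163 to 33029 of Xist and 0 to 4 of Y-linked genes. KO embryo 3, which is not paired, held 31 and 6397 in control and so resembled KO embryo 1 in these counts. It had the lowest TMM-scaled control level for Acta2, Cnn1, Myh11, Tpm1, Des, Actg2 and Lmod1. Without TMM it was the lowest for Acta2, Cnn1, Actg2 and Lmod1. The part of sex in these levels was not tested. The low TMM-scaled levels in Het and KO embryo 3 came with the high interferon genes and the low summed level of fibroblast markers given above. They also came with the higher muscle markers Myh3, Actc1 and Ttn given there. The 6 macrophage markers summed to 586 and 431 CPM in these 2 control libraries against 92.0 to 156 CPM in the others. The part of these in the result was not tested.

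The spread between control libraries was wide for the actins, Myh11 and Lmod1. After TMM the highest library was 3.62-fold above the lowest for Actg2, 3.32-fold for Acta2, 3.18-fold for Myh11 and 2.90-fold for Lmod1. It was 1.47-fold for Tpm1 and 1.41-fold for Tpm2. Without TMM the order differed, at 2.62-fold for Myh11, 2.49-fold for Actg2, 2.29-fold for Acta2, 1.53-fold for Tpm1 and 1.23-fold for Tpm2. The pattern of the set over the 9 libraries, taken as the mean of the standardised log2 CPM of the 10 genes, followed Actg2 (Pearson r 0.975) and Acta2 (0.957) most closely and Lmod1 least (0.00249). Without TMM it followed Actg2 (0.969) and Tagln (0.861), with Acta2 at 0.842 and Lmod1 at -0.420. Among all tested genes outside the set, Msra (0.979), F2r (0.977), Heph (0.968), Ing3 (0.967) and Lrrc27 (0.961) had the pattern most like it over these 9 libraries, and without TMM 4 of them were still the closest, F2r (0.827) being the 27th. F2r, the thrombin receptor, was at 1280, 546, 1928, 976 and 401 CPM in the control libraries, which is the order of Acta2. The correlations are a description over libraries that share embryos, and the genes were picked for them.

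The 2 genes with lower levels under doxorubicin were also those with the longest span in the genome. Myh11 spans 96.8 kb and Lmod1 43.3 kb from first to last base, while the other 8 span between 6.24 kb (Myl9) and 26.8 kb (Tpm1). Over all 14204 tested genes with a span, the median log2 fold change was 0.39 in genes under 5 kb, -0.16 in genes of 40 to 80 kb and -0.27 in those above 160 kb. Lmod1, at -2.68, lay far below the lower quartile of -0.86 of its class of 40 to 80 kb, and Myh11, at -0.83, lay at the lower quartile of -0.84 of its class of 80 to 160 kb. Across the 10 genes Spearman's correlation of the log2 fold change with the span was -0.685, and it was -0.405 without Lmod1 and Myh11, against -0.137 over all genes. With the length of the exons it was -0.806 across the 10 genes and -0.194 over all genes. Genes are not independent replicates, they share the 9 libraries, and the span was chosen as a measure after the values were seen.

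**Figure D5:**
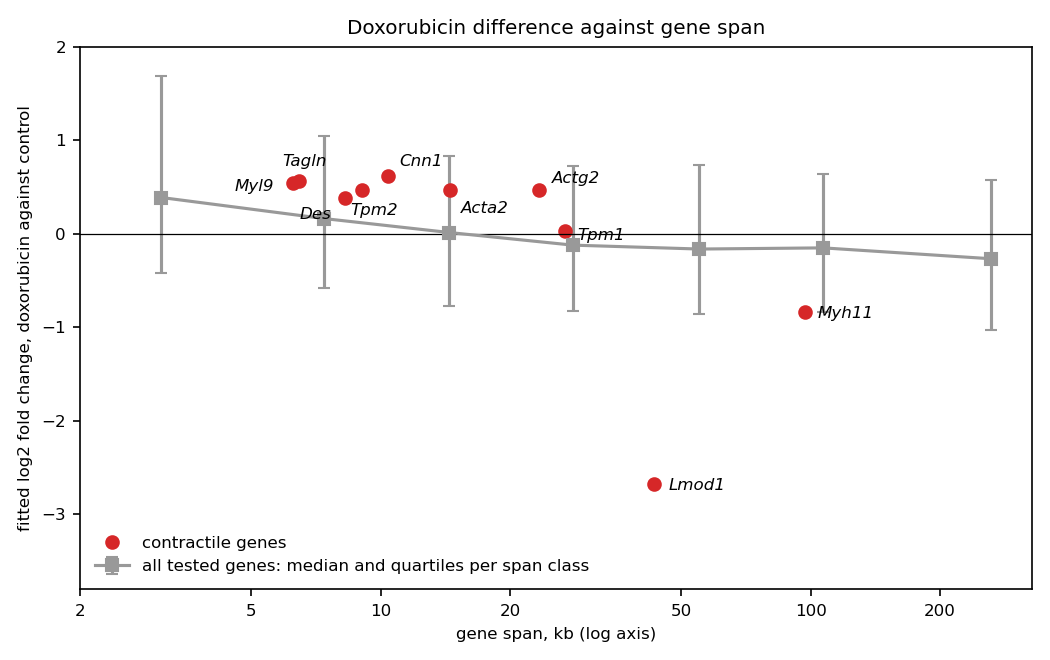
Fitted log2 fold change of doxorubicin against control and the span of the gene (kb, log axis). Red points are the 10 genes, and grey squares with bars are the median and the quartiles of all tested genes in 7 classes of span. All but Myh11 and Lmod1 lie above the median of their class, and Lmod1 lies far below it.

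The genes around the set were read in lists written from their known roles. Of 31 other smooth muscle cytoskeleton genes, 29 were tested and 10 passed in the doxorubicin comparison over all genotypes, 4 higher and 6 lower, against 21.9% of all genes tested that passed higher and 20.2% that passed lower. The median log2 fold change was -0.32, and the share that passed was near that of all genes (42.1%). The 4 with the smallest p were Smtnl2, a smoothelin-like protein, at 3.90 (SE 0.385, edgeR FDR 8.45e-05), Pdlim7, a scaffold of actin bundles, at -1.31 (SE 0.150, edgeR FDR 0.000168), Ppp1r12a, the targeting subunit of myosin phosphatase, at -1.93 (SE 0.225, edgeR FDR 0.000183), and Nexn, an actin-binding protein, at -1.24 (SE 0.155, edgeR FDR 0.000260). Smtnl2 was low, at 0.330 to 0.868 CPM in control and 5.18 to 10.1 CPM with doxorubicin. Of 7 genes of the other actins and the non-muscle myosins, 1 passed, against 42.1% of all genes, and the median was -0.81. It was the non-muscle myosin Myh14, at 2.56 (SE 0.434, edgeR FDR 0.00125). Myh14 was low, at 0.0978 to 1.45 CPM in control and 1.59 to 3.05 CPM with doxorubicin.

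Regulators that act on CArG boxes and on contraction were next. Of the 16 genes of the SRF and myocardin pathway, 10 passed, 9 lower and 1 higher, against 20.2% of all genes tested that passed lower, and the median was -0.77 against -0.02 for all genes. Fhl2, a cofactor of SRF, was 4.42-fold lower (edgeR FDR 1.78e-05), Rhob, a small GTPase, 4.07-fold (edgeR FDR 8.15e-05), Rock2, a kinase that promotes contraction, 3.76-fold (edgeR FDR 0.000108) and Mkl1, the myocardin-related factor that carries the actin signal to SRF, 2.58-fold (edgeR FDR 0.000492). Srf itself, named after its values were seen, had a log2 fold change of 0.14 (SE 0.220, edgeR FDR 0.616). Myocd, the smooth muscle myocardin, also named after its values were seen, was scarce in all 9 libraries, at 1.59 to 6.18 CPM. Of 5 early targets of SRF, 4 passed, 3 lower and 1 higher. Ankrd1 was 30.0-fold lower, Ctgf 10.2-fold lower and Cyr61 9.18-fold lower, while Fos was 7.29-fold higher. Ankrd1, Ctgf and Cyr61 are also known as targets of YAP.

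Among cell type markers, 3 of 8 pericyte and vascular mural cell genes passed in the same comparison, near the 42.1% of all genes, against which the counts of the other markers are also to be read. Pdgfrb, a receptor of mural cells that fibroblasts carry too, was 6.97-fold lower and Rgs4 3.75-fold lower, while Notch3 was 1.91-fold higher. The summed level of the 8 was 547 to 1414 CPM in control and 361 to 650 CPM with doxorubicin. Of 9 fibroblast markers 1 passed, S100a4 (0.78, SE 0.190, edgeR FDR 0.00782), which was higher. Of 10 targets of p53, listed as a check of the treatment, 1 passed, and this was Phlda3, 2.69-fold lower. The check showed no rise of the list. None passed as higher, the median log2 fold change was -0.22, and 2 of the 10 were above 0. Cdkn1a was 1.56-fold lower and did not pass (edgeR FDR 0.0144). Macrophage, endothelial and epithelial markers passed for 2 of 6, 1 of 4 and 2 of 3 tested genes, at summed levels of at most 664, 90.6 and 18.5 CPM, and 0 of 10 tested skeletal and cardiac muscle markers and 0 of 8 interferon response genes passed by edgeR, with 2 and 0 of them at an unadjusted p under 0.05 and 0 of both by DESeq2. The part of other cell types in the contractile gene levels was not tested.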

How the data were processed

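RNA was depleted of ribosomal RNA, made into libraries with the TruSeq Stranded mRNA kit and sequenced as single reads on a NextSeq instrument. For each library, 4 FASTQ files were joined by the authors, aligned to mm10 with HISAT2 (2.1.0 per the labels), sorted with Picard and counted on genes by HTSeq in union mode. The deposited values are these raw counts for 24062 genes, with no normalization by the authors, and the strand setting of the counting is not given in the sources used here. In union mode a read over overlapping genes is counted for none of them.

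The 10 genes and the gene lists were chosen with earlier results of these data known. The 40 samples are the FASTQ files of 10 libraries, of which the identical pair was counted once. Counts were scaled with TMM, filtered with filterByExpr and tested with edgeR 4.0.16 in R 4.3.3 by its quasi-likelihood test, two-sided and over all genes, p-values were adjusted after Benjamini and Hochberg with a threshold of 0.01 on the FDR, and the standard error was taken as the log2 fold change over the square root of F. Only the groups compared entered a fit, and since no text says that embryos came from separate litters or cultures, p-values measure the spread between these libraries only. The tests were first tried on simulated data. Totals of 15560728 to 24122414 counts per library put the level of 3 counts at 0.124 to 0.167 CPM, which covers counting error only. No 150-base window of the transcripts of the 10 genes was shared with another gene.

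The same embryo numbers stand in both treatments. The mean of the 4 paired embryos in each treatment was taken off, which leaves genotype differences in. The libraries of an embryo then correlated at 0.521 (WT), 0.742 (Het), 0.620 (KO embryo 1) and 0.525 (KO embryo 2) over 14883 genes. Libraries of different embryos reached 0.437 (WT with doxorubicin and KO embryo 2 in control), so the margin was small. The difference of KO embryos 1 and 2 correlated at 0.385 between treatments, and at 0.233 with embryo 3 in place of 2 in control. The numbers were taken to pair the libraries in the block fits and in the ratios within an embryo. The main fits did not use the pairs.

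The genes named are the 10 in every library, Sall2, at most 4 per list with the smallest p in the doxorubicin comparison over all genotypes, and the 5 genes most like the set. Alternatives were DESeq2 1.42.0, no TMM, library sizes without Rn45s, no filter or at least 5 counts in 2 libraries, an FDR of 0.05, the embryo as a block, RUVg with 1 factor, and libraries left out, with levels without TMM added later. RUVg was coded here after its description, and the 5000 genes of smallest p were left out of its controls.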

Additional observations from a re-analysis of the deposited data

Results flagged for a closer look

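Chance alone can give such opposite signs among a few libraries, and none of the differences below was tested, since Het has 1 library per treatment. For Tagln, the log2 ratio of doxorubicin to control was -0.0627 in Het, opposite in sign to WT (0.67) and to KO embryos 1 and 2 (0.66 and 0.66). For Tpm1, the log2 ratio was -0.432 in Het, opposite in sign to WT (0.09), while KO embryo 1 was at 0.15 and KO embryo 2 at -0.02. Both Het libraries have the high interferon response genes given above, and their part in these values was not tested.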

How the results depend on the processing

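The number of the 10 genes past the threshold in the doxorubicin comparison over all genotypes was 1, and it was 4 with the embryo as a replicate block, 4 with RUVg, 2 with DESeq2 and 2 without Het and KO embryo 3 (chosen after the data were seen), while it stayed at 1 with each single library left out. In KO alone it was 0, and 6 with the replicate block, 1 with DESeq2, without TMM, with every gene of at least 1 count and at an FDR of 0.05, and 0 to 1 with single libraries left out. The other 4 comparisons gave 0 of the 10 in every alternative run. With DESeq2 over all genotypes, calls went from 1 to 3 of 7 for the actin and non-muscle myosin genes, from 1 to 3 of 10 for the p53 targets and from 1 to 4 of 4 for the endothelial markers. The cause of these moves was not tested. Over all genes the calls ranged from 4102 to 9923 over all genotypes, from 0 to 10055 in KO alone, from 0 to 47 for KO against WT in control, from 0 to 46 with doxorubicin and from 0 to 8 for the interaction, with 0 for the slope.

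The median log2 fold change of the 10 over all genotypes ranged from 0.19 to 0.63 with single libraries left out. Of the single genes, Lmod1 ranged from -3.24 to -2.22 over all genotypes (edgeR and DESeq2 FDR 1.22e-10 to 0.00528). Tpm1 changed sign there with every gene of at least 1 count (-0.0208), with at least 5 counts (-0.00538) and with the replicate block (-0.0549), and ranged from -0.159 to 0.159 with single libraries left out. For KO against WT in control, Tpm1 was 0.112 without TMM, which moved the median of all genes from 0.04 to 0.21, and 0.00887 with RUVg. With single KO libraries left out, the log2 fold change ranged from these lowest to these highest values: Acta2 -0.658 to 0.144, Tagln -0.146 to 0.266, Cnn1 -0.615 to 0.047, Myh11 -0.549 to 0.448, Tpm1 -0.211 to 0.0859, Actg2 -0.844 to 0.152 and Lmod1 -0.573 to 0.126. With doxorubicin, Myl9 was 0.0136 without TMM. Leaving out a WT library in the comparisons of KO and WT or in the interaction removes the contrast, and leaving out a KO library with doxorubicin leaves no residual degrees of freedom for KO against WT there, so these were not run.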
